A study of Mus musculus with 6 samples.

Results

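Cyclins, the kinases they activate, mitotic regulators and the inhibitors that oppose them were examined in liver RNA of mice made chronically hyperlipidemic. The members were 53 mouse genes given by symbol. A gene counted as measured where a feature of the array carried its symbol as its only annotated gene. On the oligonucleotide array 58 features named 52 of the 53 genes, among 16871 genes tested. On the cDNA array 40 features named 38 of them, and 22 had a value on all 3 arrays, among 5011 genes tested. Ccnb1 had no feature that named it, and 16 members on the cDNA array had fewer than 3 values.

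The treated animals were 12 female C57BL/6 mice, 7 weeks old at the start. The agent was poloxamer P-407, a block copolymer detergent used to raise lipids in blood, at 0.5 g/kg into the abdomen every 3 days until livers were taken at day 96. The controls were 4 mice of the same strain, sex, age and 4.4% fat chow that were injected with saline. RNA of the treated livers was combined into 3 pools and RNA of the control livers into 1 pool, and each treated pool was hybridised in Cy5 against the control pool in Cy3 on 1 oligonucleotide and 1 cDNA array. Each value is therefore a ratio of a treated pool over the control pool, read as a log2 ratio, and values above 0 mean more RNA in a treated pool than in the control pool. If the deposited values were natural logs, which the sources used here do not settle, every fold change below would be larger. Ratios carry no level, so the labelled tissue could not be checked against its markers, and pools hide the spread between mice.

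A cell enters division when D-type cyclins with Cdk4 or Cdk6, and then E-type cyclins with Cdk2, inactivate the Rb1 protein and release E2F factors, which switch on genes for DNA synthesis. Mitosis is driven by Cdk1 with A- and B-type cyclins and by the Aurora, Polo-like and Nek kinases, and it ends when the anaphase-promoting complex with Cdc20 marks its substrates for destruction. Inhibitors such as p21, the product of Cdkn1a, and p27, the product of Cdkn1b, hold the cycle back. Adult hepatocytes are largely quiescent and can re-enter the cycle after loss or injury of liver tissue.

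Across genes the 3 oligonucleotide arrays had Pearson r from 0.714 to 0.797. All ratios share 1 control pool and 1 dye orientation, which by themselves make them correlate, so r says nothing about the treatment. On the cDNA array pools 1 and 2 had r = 0.702, while pool 3 stood apart, with r = 0.338 against pool 1 and 0.286 against pool 2. The cDNA ratios were also wider: the range between the 5th and 95th percentile of genes lay between -1.11 and 1.29 for cDNA features and between -0.37 and 0.41 for oligonucleotide features. The median SD of the 3 pools over members was 0.428 and 0.0818 on these 2 array types. Results below come from the oligonucleotide array unless the cDNA array is named.

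In treated livers 4 of 8 inhibitors and arrest genes and 11 of 28 mitotic genes were higher, and of 11 S-phase genes 2 were higher and 3 lower. Gadd45b, Cdkn1a, Plk4 and Gadd45a were the members farthest above 0, and Aurkb and Kif11 the farthest below. Most changes were small. Of 52 members, 18 were higher (34.6%) and 7 lower (13.5%) at a limma adjusted p under 0.05, against 22% higher and 21.4% lower, or 43.4% in either direction, among all 16871 genes. Of 862 genes of the Olfr, Vmn and Taar receptor families, which serve smell and not liver function, 11% were called higher and 25.1% lower, or 36.1% in either direction, so a call alone is a weak statement here. The calls also rest on the variance that limma shares across genes. Without that prior 0 members were higher and 0 lower (adjusted p of the 25 from 0.0611 to 0.265). In that fit 20 of the 52 members had an unadjusted p under 0.05, beside 6231 of all 16871 genes, a similar share. Every call below is a call with the shared prior. Among the 862 receptor genes the 95th percentile of absolute log2 ratio was 0.41, and 5 members exceeded it upwards and 0 downwards. The genes of the whole array beyond that cut were not counted. Over all 16871 genes the 5th and 95th percentiles of the log2 ratio were -0.37 and 0.41. The largest absolute ratio among these receptor genes was 2.08, above that of any member. When limma tested for more than a 1.2-fold change, 3 members were higher, namely Gadd45b, Cdkn1a and Plk4, and 0 were lower, against 3.01% and 2.16% of all genes. In bulk RNA a higher ratio from more cells of a type cannot be told apart from more RNA per cell.

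**Figure D1:**
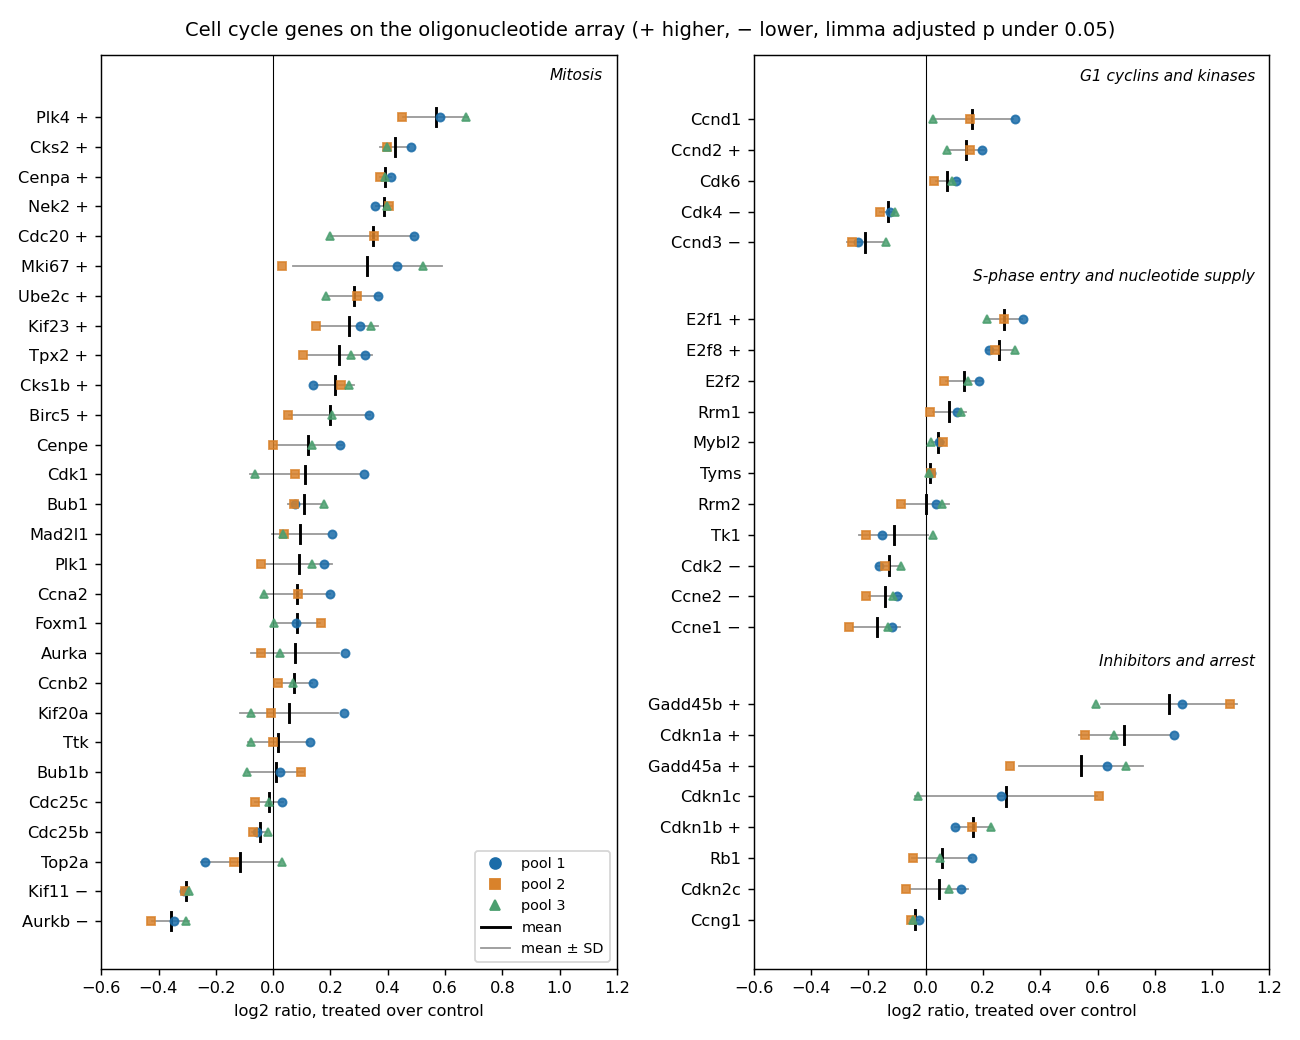
Log2 ratio of treated over control on the oligonucleotide array for each of 52 cell cycle genes (x axis), by class, with 1 symbol per treated pool, a black bar at the mean and a grey line of ± 1 SD (n = 3 pools); + and − mark genes called higher or lower. Gadd45b, Cdkn1a, Gadd45a and Plk4 lie farthest to the right, and Aurkb and Kif11 farthest to the left.

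The largest increases were among the inhibitors and arrest genes. Of these, 4 of 8 were higher (50%) and 0 lower, beside 22% and 21.4% of all genes. Gadd45b, a stress-induced inhibitor of the Cdk1 kinase that also signals to MAP kinases, had log2 ratios of 0.89, 1.06 and 0.59 in treated pools 1, 2 and 3, a mean of 0.85 ± 0.24 (SD, n = 3), or 1.80-fold higher (limma adjusted p = 0.0015). Cdkn1a, which encodes p21, had 0.87, 0.56 and 0.66, a mean of 0.69 ± 0.16, or 1.62-fold higher (adjusted p = 0.0012). All 3 pools of both genes lay above 0.5. Gadd45a, a relative of Gadd45b that is induced by DNA damage, had 0.63, 0.29 and 0.70, with a mean of 0.54 ± 0.22, or 1.46-fold higher (adjusted p = 0.00444). Its pool 2 was the lowest.

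The other inhibitors moved little or were uneven between pools. Cdkn1b rose by 0.16 ± 0.06 (adjusted p = 0.0288), with pools at 0.10, 0.16 and 0.23, and its call was lost when any 1 pool was left out (adjusted p from 0.0744 to 0.0955). Cdkn1c, which encodes p57, had 0.26, 0.61 and -0.03, so its mean of 0.28 ± 0.32 rested on pool 2 and was not called (adjusted p = 0.0915). Without pool 3 it was called, at 0.43 (adjusted p = 0.0182). Cdkn2c, an inhibitor of Cdk4 and Cdk6, averaged 0.05 ± 0.10, with pool 2 below 0. Rb1, the brake on E2F, averaged 0.06 ± 0.10. Ccng1, a cyclin induced by p53, had -0.02, -0.05 and -0.04, a mean of -0.04 with a 95% interval of -0.14 to 0.06. None of these 3 was called.

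The G1 genes split by sign. Ccnd2, a D-type cyclin, had 0.20, 0.15 and 0.07 and was higher at 0.14 ± 0.06 (adjusted p = 0.0456). Ccnd1, the D-type cyclin most tied to hepatocyte division, had 0.31, 0.15 and 0.03, positive in all 3 pools but not called (0.16 ± 0.14, adjusted p = 0.0776). Ccnd3 was lower, at -0.24, -0.26 and -0.14 (mean -0.21 ± 0.06, adjusted p = 0.0127), and its kinase partner Cdk4 was lower at -0.13 ± 0.03 (adjusted p = 0.0434). Each of these changes was under 1.2-fold. Without pool 1 none of Ccnd2, Ccnd3 and Cdk4 was called (adjusted p = 0.241, 0.0809 and 0.172), nor without pool 2 (0.139, 0.0607 and 0.143). Without pool 3, Ccnd1 was called at 0.23 (adjusted p = 0.0336) and Cdk4 was not (adjusted p = 0.0763). Cdk4 was also not called on uncentred arrays (adjusted p = 0.0520).

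Among genes of S-phase entry and nucleotide supply, 2 of 11 were higher (18.2%) and 3 lower (27.3%), near the 22% and 21.4% of all genes. E2f1, an activating E2F factor, had 0.34, 0.27 and 0.21 (mean 0.27 ± 0.06, 1.21-fold, adjusted p = 0.00533). E2f8, an atypical E2F that represses E2F targets, had 0.22, 0.24 and 0.31 (mean 0.26 ± 0.05, adjusted p = 0.00562). Both were positive in every pool, and with the shared prior both were called whichever pool was left out. Ccne1 was lower at -0.17 ± 0.08 (adjusted p = 0.0318), Ccne2 at -0.14 ± 0.06 (adjusted p = 0.0445) and Cdk2, the kinase both E-type cyclins activate, at -0.13 ± 0.04 (adjusted p = 0.0481). All 9 pool values of these 3 genes were below 0, and the changes were 1.09-fold to 1.13-fold. None of them was called when any 1 pool was left out (adjusted p from 0.0537 to 0.236), and Ccne2 and Cdk2 were not called when arrays were left uncentred (adjusted p = 0.0526 and 0.058).

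The enzymes that supply DNA precursors were not called on the oligonucleotide array, nor on the cDNA array where tested. Rrm1 and Rrm2, the subunits of ribonucleotide reductase, averaged 0.08 ± 0.06 and 0.00 ± 0.08. The 95% interval of Rrm2 was -0.11 to 0.12. Tyms, thymidylate synthase, averaged 0.02 over 3 features, with pools at 0.02, 0.02 and 0.01. The 3 features differed in sign, with means of 0.08, -0.02 and -0.01, and none was called alone. The cDNA feature of Tyms had 0.42, 2.45 and 0.94, positive in every pool (mean 1.27 ± 1.05, adjusted p = 0.172). Tk1, thymidine kinase, had -0.15, -0.21 and 0.02 and was called only when pool 3 was left out (-0.18, adjusted p = 0.0426). The E2F factor E2f2 averaged 0.13 ± 0.06 (adjusted p = 0.0546, and 0.0468 on uncentred arrays) and Mybl2, a factor of late S phase, 0.04 ± 0.02.

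Of 28 mitotic genes 11 were higher (39.3%) and 2 lower (7.14%), beside 22% and 21.4% of all genes. Plk4, Cks2, Cenpa and Nek2 had the highest means, whereas Cdk1 and its cyclins Ccna2 and Ccnb2 were not called. Cdk1 had 0.32, 0.08 and -0.06 (mean 0.11, 95% interval -0.07 to 0.30, adjusted p = 0.274). Ccna2 had 0.20, 0.09 and -0.03 (mean 0.08, 95% interval -0.05 to 0.22) and Ccnb2 0.14, 0.02 and 0.07 (mean 0.07, 95% interval -0.03 to 0.18). In each of the 3 genes pool 1 was the highest. Foxm1, the factor that drives transcription of many mitotic genes, averaged 0.08 ± 0.08, and the Cdk1-activating phosphatases Cdc25b and Cdc25c averaged -0.05 ± 0.03 and -0.01 ± 0.05.

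The Cdk-binding subunits Cks1b and Cks2 were both higher. Cks2 had 0.48, 0.40 and 0.40 (1.34-fold, SD 0.05, adjusted p = 0.00135). Cks1b had 0.14, 0.24 and 0.27 (mean 0.21 ± 0.07, adjusted p = 0.0126), and without pool 2 its adjusted p was 0.0587. All 6 pool values were above 0.

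Kinases of the centrosome and of chromosome segregation went in different directions. Plk4, the kinase that starts centriole duplication, had 0.58, 0.45 and 0.67 (mean 0.57 ± 0.11, 1.48-fold, adjusted p = 0.0012), the largest mean of the mitotic class, although its cDNA ratios were below 0 in all 3 pools. Nek2, which separates centrosomes at the onset of mitosis, had 0.36, 0.41 and 0.40 (mean 0.39 ± 0.03, 1.31-fold, adjusted p = 0.0015). Aurkb, the Aurora kinase of the chromosomal passenger complex, was lower, with -0.34, -0.43 and -0.30 (mean -0.36 ± 0.06, 1.28-fold lower, adjusted p = 0.00248). Plk4 and Nek2 were above 0.3 in all pools and Aurkb was below -0.3 in all pools. Birc5, which encodes survivin and belongs to the same complex as Aurkb, had 0.34, 0.05 and 0.21 and was higher at 0.20 ± 0.14 (adjusted p = 0.0438). Its call was lost without pool 1 (0.13, adjusted p = 0.223) and without pool 3 (0.19, adjusted p = 0.109). Aurka (0.08 ± 0.15) and Plk1 (0.09 ± 0.12), the kinases of mitotic entry, had pool 2 below 0 and were not called.

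The spindle checkpoint, which delays anaphase until all chromosomes are attached, showed no called member. Bub1 averaged 0.11 ± 0.06 (adjusted p = 0.0916), Bub1b 0.01 ± 0.10, Ttk 0.02 ± 0.10 and Mad2l1 0.09 ± 0.10. The target of that checkpoint and its partner were higher. Cdc20, the activator of the anaphase-promoting complex, had 0.49, 0.35 and 0.20 (mean 0.35 ± 0.15, 1.27-fold, adjusted p = 0.00754). Ube2c, the ubiquitin-conjugating enzyme of that complex, had 0.37, 0.29 and 0.19 (mean 0.28 ± 0.09, 1.22-fold, adjusted p = 0.00698). Pool 1 was the highest and pool 3 the lowest in both.

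Among genes of chromosomes and the spindle, Cenpa, the histone variant that marks centromeres, had 0.41, 0.37 and 0.39 (mean 0.39 ± 0.02, 1.31-fold, adjusted p = 0.0014). Kif11, the motor that pushes spindle poles apart, was lower with almost no spread, at -0.31, -0.31 and -0.29 (mean -0.30 ± 0.01, 1.23-fold lower, adjusted p = 0.00279). Mki67, the widely used proliferation marker Ki-67, had 0.43, 0.03 and 0.52. It was called at 0.33 ± 0.26 (adjusted p = 0.0359), but pool 2 showed almost no change, and the call was lost without pool 1 (0.28, adjusted p = 0.147) and without pool 3 (0.23, adjusted p = 0.125). Top2a, the topoisomerase that untangles sister chromatids and rises with Mki67 in dividing cells, had -0.24, -0.14 and 0.03. Its mean was -0.11 with a 95% interval of -0.26 to 0.03, and it was called only without pool 3 (-0.19, adjusted p = 0.0459).

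Tpx2, a spindle assembly factor that activates Aurka, was higher at 0.23 ± 0.11 (adjusted p = 0.0180), and not when pool 1 (adjusted p = 0.109) or pool 3 (0.0600) was left out. Kif23, a motor of cytokinesis, was higher at 0.26 ± 0.10 (adjusted p = 0.00994), and not without pool 1 (0.24, adjusted p = 0.0627). Kif20a, another motor of cytokinesis, had 0.25, -0.01 and -0.08 and was not called. With each pool left out in turn and the shared prior kept, 11 of the 18 higher members and 2 of the 7 lower ones were called every time. The share of all genes called every time was not computed, so these counts have no baseline. Each of these fits alone called 1996 to 3180 of the 16871 genes higher and 2029 to 3064 lower. The 11 were Gadd45b, Cdkn1a, Gadd45a, Plk4, Cks2, Cenpa, Nek2, Cdc20, Ube2c, E2f1 and E2f8, and the 2 were Aurkb and Kif11.

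The 3 functional blocks were contrasted by their medians, as a description without a test. The median log2 ratio was 0.22 for the inhibitors and arrest genes, 0.10 for the mitotic genes, 0.02 for the S-phase genes and 0.08 for the 5 G1 genes, beside 0.003 for all genes tested. The inhibitors had medians of 0.21, 0.23 and 0.15 in pools 1, 2 and 3. The mitotic genes had 0.22, 0.06 and 0.10, and the S-phase genes 0.04, 0.02 and 0.02. The mitotic median was therefore above the S-phase median in every pool, and the inhibitor median was above the mitotic one in pools 2 and 3. Without pool 2 the inhibitor median was 0.14 and the S-phase median 0.03, and without pool 1 the mitotic median was 0.06. The order was another on the cDNA array, where fewer members were measured. There the median was 0.80 for 12 mitotic genes, 0.43 for 3 inhibitors and -0.21 for 4 S-phase genes. With both array types averaged per pool, the same genes had medians of 0.49, 0.36 and -0.13. The inhibitor median was thus the highest on the oligonucleotide array only.

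**Figure D2:**
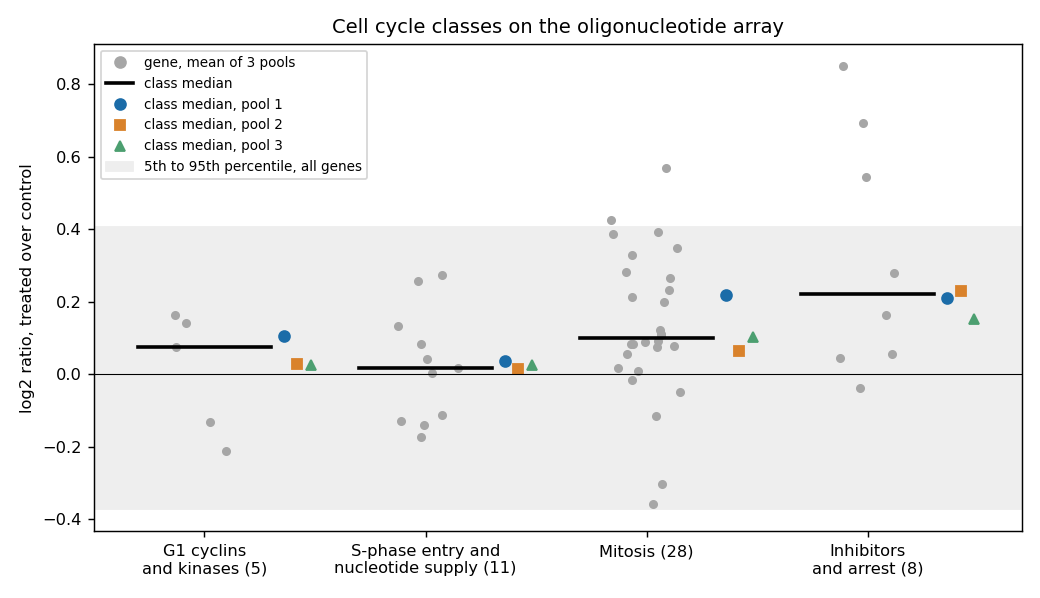
Mean log2 ratio of treated over control on the oligonucleotide array for the genes of each class (grey points, number of genes in brackets), with the class median (black bar) and the class median in each treated pool (coloured symbols); the shaded band runs from the 5th to the 95th percentile of all 16871 genes, -0.37 to 0.41. On this array the inhibitors have the highest median, 0.22, and the S-phase genes have a median of 0.02.

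Promoter sequences were available for 42 members. The 5 shown are a choice from the genes called in all 3 leave-one-out fits, made to include both directions. They are the 250 bases before the annotated start in RefSeq, build GRCm38.p6, written 5′ to 3′ on the gene's strand. Capitals mark a CHR (TTTGAA), an element through which a repressor and activator complex times mitotic transcription, and a CCAAT box (CCAAT), the site of the factor NF-Y, each on either strand. Cdc20 at chr4:118437344-118437593 (minus strand), Ube2c at chr2:164769679-164769928 (plus strand), Cks2 at chr13:51644982-51645231 (plus strand) and Plk4 at chr3:40799701-40799950 (plus strand) were higher, and Kif11 at chr19:37376132-37376381 (plus strand) was lower.
Cdc20: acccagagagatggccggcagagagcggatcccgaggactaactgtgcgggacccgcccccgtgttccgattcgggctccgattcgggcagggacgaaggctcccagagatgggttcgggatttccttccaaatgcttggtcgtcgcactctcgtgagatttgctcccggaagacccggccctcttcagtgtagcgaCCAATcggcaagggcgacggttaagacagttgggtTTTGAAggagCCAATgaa
Ube2c: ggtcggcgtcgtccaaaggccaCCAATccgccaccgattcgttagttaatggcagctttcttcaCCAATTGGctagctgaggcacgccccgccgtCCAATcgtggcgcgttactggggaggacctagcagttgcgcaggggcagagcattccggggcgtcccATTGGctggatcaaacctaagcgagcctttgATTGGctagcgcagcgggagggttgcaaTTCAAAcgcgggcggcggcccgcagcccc
Cks2: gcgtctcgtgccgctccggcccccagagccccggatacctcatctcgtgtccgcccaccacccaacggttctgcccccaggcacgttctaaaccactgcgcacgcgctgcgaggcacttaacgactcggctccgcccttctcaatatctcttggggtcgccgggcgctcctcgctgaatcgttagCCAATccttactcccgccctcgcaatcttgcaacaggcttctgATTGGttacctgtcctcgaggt
Plk4: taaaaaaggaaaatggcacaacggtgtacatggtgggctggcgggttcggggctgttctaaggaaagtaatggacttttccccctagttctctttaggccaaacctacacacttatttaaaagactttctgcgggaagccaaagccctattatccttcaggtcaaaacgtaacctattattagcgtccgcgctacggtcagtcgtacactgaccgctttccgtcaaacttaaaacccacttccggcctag
Kif11: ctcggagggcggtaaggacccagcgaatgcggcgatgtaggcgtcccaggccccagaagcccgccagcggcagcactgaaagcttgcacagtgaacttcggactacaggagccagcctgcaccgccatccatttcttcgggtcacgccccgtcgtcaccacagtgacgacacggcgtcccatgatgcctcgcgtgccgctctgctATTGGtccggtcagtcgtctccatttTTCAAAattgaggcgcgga

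Cdc20, Ube2c and Kif11 each held 1 CHR close to the start, with its last base 13, 24 and 14 bases before it, and a CCAAT box 49, 53 and 41 bases before the start. This arrangement was therefore present in genes called higher and in a gene called lower. Cks2 held 2 CCAAT boxes and 0 CHR, and Plk4 held neither motif. Cenpa and Nek2, mitotic genes also called higher in every leave-one-out fit, are not shown. Cenpa held 2 CCAAT boxes, Nek2 held 1, and both held 0 CHR. Over the first listed start of each gene, a CCAAT box was found in 87% of 23 mitotic members, against 34.5% of all 27025 genes in the table. A CHR was found in 34.8% of the mitotic members, against 16.3% of all genes. An E2F-like site, searched as TTTNNCGC on either strand, was found in 4.35% and 4.39%, and in none of the 5 promoters shown. Of 10 mitotic members called higher 80% had a CCAAT box and 40% a CHR, beside 90.9% and 27.3% of 11 not called. In the promoters shown no motif overlapped one of another kind.

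Whether both array types read the same change was asked for the 22 members with values on all 6 arrays. On the cDNA array limma called 0 of these 22 members and 0% of all 5011 genes, while 7 members and 1518 genes had an unadjusted p under 0.05. A test without limma's shared variance prior called 1 gene and 0 members there. Mitotic genes held both the highest and the lowest mean of these 22 members on the cDNA array. Cdk1 had 2.09, 3.92 and 0.21 on the cDNA array, a mean of 2.07 ± 1.86 (adjusted p = 0.181). Ccnb2 had 2.30, 2.69 and 0.04, a mean of 1.68 ± 1.43 (adjusted p = 0.174). Kif20a had 1.78, 4.10 and -0.93, and Kif23 1.44, 2.76 and -0.56. In these 4 genes pools 1 and 2 were far above pool 3, the array that stood apart over all genes. Without pool 3 their means were 3.005, 2.495, 2.94 and 2.10 (adjusted p from 0.0954 to 0.122), and still 0 members were called. Whether that array bears on these ratios was not tested. Aurka was the lowest, with -1.32, -1.30 and 0, a mean of -0.87 ± 0.76 (adjusted p = 0.184), and Plk1 averaged -0.39 ± 0.37.

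**Figure D3:**
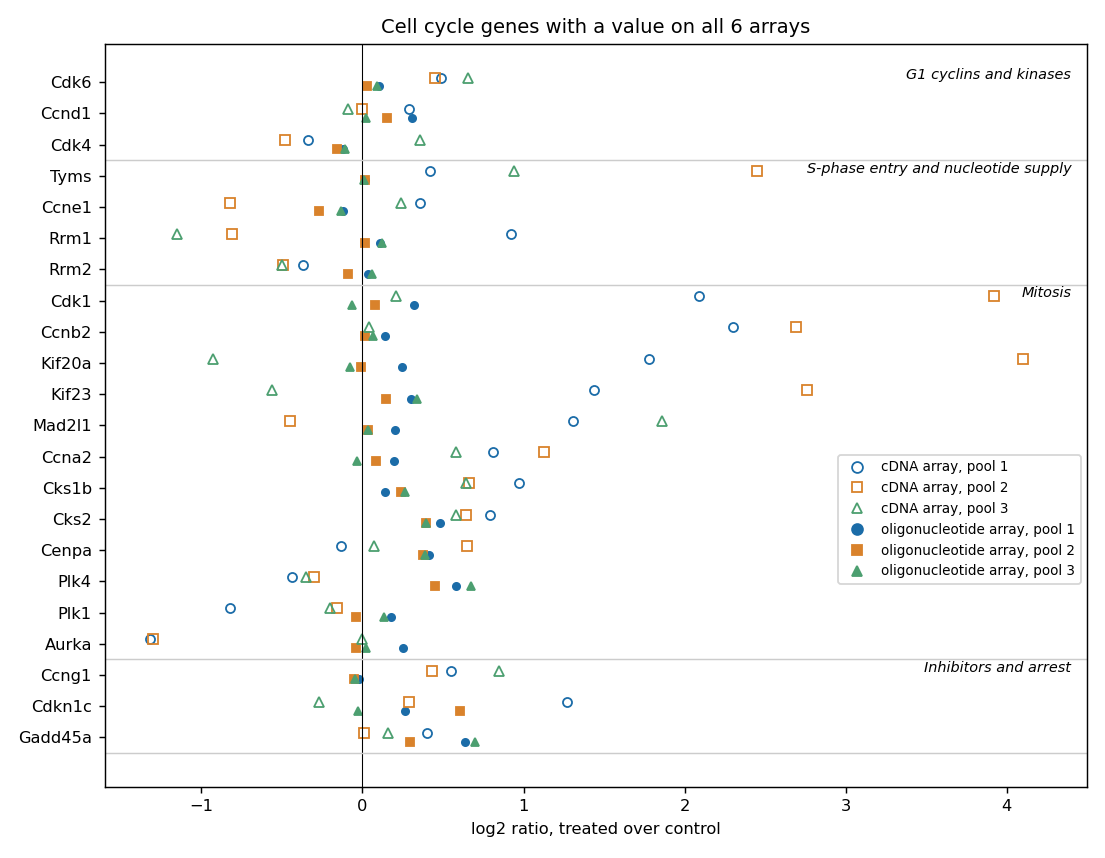
Log2 ratio of treated over control (x axis) for the 22 members with a value on all 6 arrays, with open symbols for the cDNA array and filled symbols for the oligonucleotide array of each treated pool. For Cdk1, Ccnb2, Kif20a and Kif23 the cDNA values of pools 1 and 2 lie far above that of pool 3. Cks2, Cks1b, Ccnb2, Cdk6, Tyms and Gadd45a are above 0 on all 6. For Cdk6 and Tyms this holds for the average of several features, some of which had means below 0.

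Cks2 was the member that passed with both array types combined. Its cDNA ratios were 0.79, 0.64 and 0.58, and its pool means over both array types were 0.64, 0.52 and 0.49 (mean 0.55 ± 0.08, 1.46-fold, limma adjusted p = 0.0466), against 2.47% of 4702 genes called higher and 2.64% lower (5.1% in all) in that fit. Of the other 21 members 0 were called, and 9 of the 22 had an unadjusted p under 0.05. The share of all 4702 genes at that unadjusted threshold was not computed, so this count has no baseline. Cks1b had 0.97, 0.66 and 0.64 on the cDNA array and a combined mean of 0.49 ± 0.06 (adjusted p = 0.0513). The call of Cks2 was lost when any 1 pool was left out (adjusted p from 0.0570 to 0.357), and with zeros kept or a robust prior (0.0724 and 0.0508), and without pool 3 Ccnb2 was called instead (1.29, adjusted p = 0.0498).

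The array types differed for 4 of the 22 members in a fit across the 6 arrays without pairing, against 11.4% of 4702 genes. Of the 4, 2 were higher and 2 lower on the cDNA array, against 5.17% and 6.25% of genes. Plk4 averaged -0.36 for its cDNA feature and 0.57 for its oligonucleotide feature, a difference of -0.93 (95% interval -1.21 to -0.65, adjusted p = 0.0189), with no overlap between the 2 sets of pools. Ccna2 averaged 0.84 and 0.08 (difference 0.76, adjusted p = 0.0472), Ccng1 0.61 and -0.04 (0.65, adjusted p = 0.0430) and Rrm2 -0.45 and 0.003 (-0.46, adjusted p = 0.0485). With the pool as a block, none of the 4 passed (adjusted p = 0.128 for Plk4, 0.137 for Ccna2, 0.138 for Ccng1 and 0.149 for Rrm2). Left unpaired, they were also 0 without pool 1 and 0 without pool 2. The direction of Plk4 is thus not the same on the 2 array types, and none of its 3 cDNA ratios, -0.44, -0.30 and -0.35, was positive.

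Of the remaining cDNA features, some had values in 2 pools and did not enter the main fits. Cdkn1a had 3.52 in pool 1 and 1.77 in pool 3, both above its oligonucleotide ratios of 0.87 and 0.66. Gadd45b had 0.87 and 0.19 in the same pools, and Nek2 1.08 and 0.95. In those pools Cdc25c had 1.66 and -0.2, and 1 feature of Cenpe -2.5 and 0.92, so both changed sign between pools. Mki67 had 3.26 in pool 2 and -0.29 in pool 3, where its oligonucleotide ratios were 0.03 and 0.52. The cDNA and oligonucleotide values of Mki67 thus placed the pools in opposite order.

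Several oligonucleotide features of 1 gene could disagree. Cenpe, the kinetochore motor, had 1 feature at 0.74, 0.38 and 0.48 (mean 0.53, adjusted p = 0.00346) and another, annotated with its RefSeq transcript, at -0.28, -0.38 and -0.21 (mean -0.29, adjusted p = 0.00662). Both were called, in opposite directions, and their average of 0.12 describes neither. Cdk6, a partner of D-type cyclins, had 1 feature at 0.34, 0.22 and 0.30 (mean 0.29, adjusted p = 0.00474) and its RefSeq feature at -0.13, -0.17 and -0.12 (mean -0.14, adjusted p = 0.0385). On the cDNA array the 2 Cdk6 features averaged 1.26 ± 0.38 and -0.20 ± 0.59, neither called. The 2 features of Kif23 were both higher (0.24 and 0.29), and those of Cdkn1b were 0.20 (adjusted p = 0.0123) and 0.13 (adjusted p = 0.128). In this fit over single features 21.6% were higher and 21.3% lower among 18640.

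**Figure D4:**
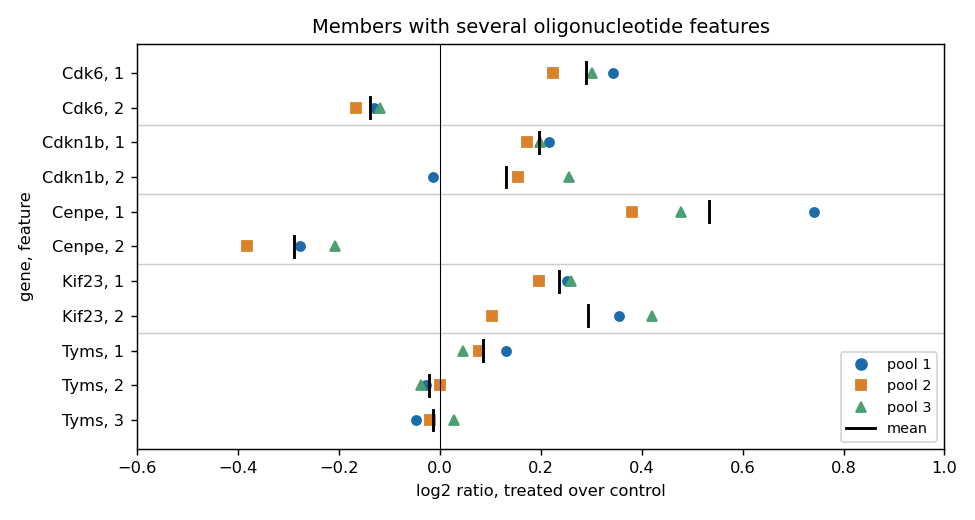
Log2 ratio of treated over control (x axis) for each oligonucleotide feature of the 5 members with several features, with 1 symbol per treated pool and a black bar at the mean. The 2 features of Cenpe, and the 2 of Cdk6, lie on opposite sides of 0 in every pool.

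Other genes of the cycle were taken from lists written by function. Their counts stand beside 22% higher and 21.4% lower among all genes. Of 28 measured replication genes, 12 were higher and 3 lower (median 0.11). Prim1 and Prim2, the primase subunits, reached 0.34 ± 0.04 (adjusted p = 0.00221) and 0.43 ± 0.04 (adjusted p = 0.00117). Chaf1b, a chaperone that loads histones on new DNA, reached 0.43 ± 0.05, and Rfc3, a subunit of the clamp loader, 0.35 ± 0.05. Of 35 other mitotic genes, 16 were higher and 6 lower (median 0.14). Incenp, the scaffold of the complex that holds Aurkb, had 0.68, 0.44 and 0.71 and was higher at 0.61 ± 0.15 (adjusted p = 0.00146), while Aurkb itself was lower. Smc4, a condensin subunit, was higher at 0.42 ± 0.08, and the kinetochore gene Spc24 (-0.58 ± 0.14) and the spindle pole gene Aspm (-0.39 ± 0.05) were lower.

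Other brakes and p53 targets were mixed. Of 20 other brakes, 4 were higher (20%) and 2 lower (10%), with a median of -0.03. The cyclin gene Ccng2, linked to cells that leave the cycle, was higher at 0.41 ± 0.05 (adjusted p = 0.0015). Of the antiproliferative genes, Btg1 was higher at 0.36 ± 0.07 and Btg2 at 0.34 ± 0.13. The checkpoint kinase gene Chek2 was lower at -0.36 ± 0.10 (adjusted p = 0.00361). Of 21 genes of p53 and its targets, 9 were higher and 4 lower (median 0.09). Plk2 had 1.06, 0.79 and 0.89 (mean 0.91 ± 0.14), but its cDNA feature had -0.75, -0.37 and -0.49, below 0 in every pool (mean -0.54, adjusted p = 0.127). Pmaip1, a death gene of the BCL2 family, had 0.81, 0.81 and 0.77. Plk3, a stress-responsive relative of Plk4, was the farthest below 0, with -1.73, -1.49 and -1.16 (mean -1.46 ± 0.29, adjusted p = 0.00057), and Ei24 was lower at -0.56 ± 0.06. Of 17 growth signals to hepatocytes, 4 were higher and 4 lower (23.5% each), close to the shares of all genes. Myc, a growth-promoting factor, was higher at 0.63 ± 0.25 (adjusted p = 0.0038), Max, its partner, at 0.39 ± 0.07 and Mycn at 0.30 ± 0.09, and Gab1, an adaptor of growth factor receptors, was lower at -0.32 ± 0.07.

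Markers of other cells moved in the same pools. Of 14 measured macrophage markers, 10 were higher and 3 lower, with list means of 1.23, 0.98 and 1.14 in pools 1, 2 and 3. Gpnmb and Trem2, genes of lipid-laden macrophages, averaged 4.63 and 4.31, and Cd163 averaged -1.77. Markers of resident liver macrophages went both ways, with Cd5l at 1.48 and Clec4f at 0.33 called higher and Marco at -1.24 and Vsig4 at -0.17 called lower. Lymphocytes and NK cells had 14 markers, with 9 higher and 1 lower (means 0.33, 0.23 and 0.26), among them Jchain of plasma cells at 0.93. Of 8 stellate cell and fibroblast markers 7 were higher (means 0.61, 0.585 and 0.52). Of 8 erythroid markers 5 were higher and 1 lower (means 0.31, 0.25 and 0.10). Of 5 biliary markers 2 were higher. Of 13 hepatocyte markers 0 were higher and 7 lower (means -0.42, -0.44 and -0.37). The mitotic members had means of 0.19, 0.08 and 0.12 in those pools. Pool 2 was thus the lowest and pool 1 the highest for the mitotic members, the macrophage markers and the lymphocyte and NK cell markers. That order was not particular to these sets. It was also seen in the means of all genes tested (0.015, 0.005 and 0.009), the other mitotic genes (0.15, 0.07 and 0.09) and the other replication genes (0.14, 0.09 and 0.10). On the cDNA array pool 2 was instead the highest for the mitotic members (0.73, 1.195 and 0.16) and the macrophage markers (0.37, 0.89 and 0.51), and the lymphocyte and NK cell markers had a median of -0.53 (means -0.22, -1.28 and 0.26). Ms4a1 and Cd79b of B cells and Alas2 of erythroid cells were called higher on the oligonucleotide array and averaged -0.64, -1.12 and -0.64 on the cDNA array, where nothing was called. The part of these cell types in the ratios of the cell cycle genes was not tested.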

How the data were processed

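The deposited tables hold 1 log ratio per feature and array, read here as log2 ratios of Cy5 (treated) over Cy3 (control). The normalization that the authors applied, the log base and any filters were not given in the sources used here, and no intensities were used, so signal over background is unknown. Per the labels' protocols, 10 ug of RNA was labelled for each cDNA array and 0.5 ug for each oligonucleotide array.

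Values of exactly 0 were taken as missing (1257 to 1277 features per oligonucleotide array and 3421 to 5332 per cDNA array). The median of the other features was subtracted from each array, and features with a single annotated gene were averaged per gene. On the cDNA array 5 features that name a member together with another gene were left out. Genes measured on all 3 arrays of 1 type were tested with limma 3.58.1 in R 4.3.3 (lmFit and eBayes of the mean against 0, Benjamini-Hochberg adjustment over all genes, threshold 0.05). The control pool is 1 sample and the dyes were never exchanged, so control spread and gene-specific dye effects are not covered. The p-values measure the spread between pools only. The 2 arrays of a pool read the same RNA and so are paired by design. As a check, deviations from the mean of the array type were correlated across genes. The correlation was 0.062, 0.073 and 0.074 within a pool, and from -0.055 to -0.018 between arrays of different pools. All of these values are small, so the check is weak. The code was tested on simulated data.

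The members and lists were chosen with earlier results of these data known. Every measured member could be named. Of each list of other cycle, p53 and growth genes, up to 4 genes with the smallest adjusted p and 1 sign in all pools were named. The cell type markers named did not all follow this rule: Marco and Vsig4 were named, and Cd68, with a smaller adjusted p, was not. No protein sequences were used here. Python 3.11.15, pandas 2.3.3 and matplotlib 3.10.9 made tables and plots.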

Additional observations from a re-analysis of the deposited data

Results flagged for a closer look

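The 2 array types gave different ratios of treated over control for 4 members in the fit without pairing. The difference, cDNA minus oligonucleotide array, was -0.93 for Plk4, 0.76 for Ccna2, 0.65 for Ccng1 and -0.46 for Rrm2. With the pool as a block none of the 4 passed, with adjusted p from 0.128 to 0.149.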

How the results depend on the processing

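On the oligonucleotide array, 18 members were higher and 7 lower. Without the shared prior 0 were higher and 0 lower. In that fit 20 members and 6231 of all genes had an unadjusted p under 0.05. Among all genes 24 were then higher and 16 lower, against 3710 and 3608. Against a 1.2-fold minimum 3 were higher and 0 lower, with 508 and 364 of all genes. Without centring 4 were lower. Leaving out 1 pool gave 12 to 16 higher and 2 to 5 lower, with 1996 to 3180 of all genes higher and 2029 to 3064 lower. For both array types combined, 1 member was higher, and 0 were with zeros kept, with 2 of 3 arrays, without the prior, against 1.2-fold or with a robust prior, and 0 to 1 with 1 pool left out. For the array type difference, 2 members were higher and 2 lower. The pool as a replicate block gave 0 and 0, zeros kept 0 and 1, a 1.2-fold minimum 0 and 1, and a robust prior 1 and 1. No centring and no prior each gave 1 higher, genes on 2 of 3 arrays gave 1 lower, and leaving out 1 pool gave 0 to 2 of each. The S-phase median was 0.0167, 0.0027 with the median of features, and 0.0155 to 0.0327 with 1 pool left out, and the inhibitor median of 0.22 ranged from 0.14 to 0.28. Taken alone, in an alternative chosen after seeing the data, the RefSeq features of Cdk6 (-0.14) and Cenpe (-0.29) were reversed against the gene averages. The cause of these changes was not tested. A count over the other alternatives, without the features taken alone, covered 960 values of single members. Of these, 869 kept their side of the threshold, 85 lost a call, 6 gained one and 0 reversed a called direction. A further look at values called in neither setting found 16 that changed sign. The number of arrays limits the precision.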
